A study of Homo sapiens with 36 samples.

Results

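Genes of cholesterol synthesis, uptake and storage were examined in ZR-75-1 cells, a human breast cancer line that carries the estrogen receptor. The set held 31 genes, listed by name, and each was read from 1 probe (where a gene had several, the brightest on average). A probe with a gene name was found for 29 of them (FDFT1 and GGPS1 were not named in the table of probes), and 28 passed the filter on dim probes, among 9902 genes tested. The remaining gene, STARD4, had a named probe that did not pass. The 36 Illumina HumanWG-6 arrays fell into 9 groups of 4. VC cells received vehicle. E2, P4, MPA and DHT cells received estradiol, progesterone, medroxyprogesterone acetate (a synthetic progestin) or dihydrotestosterone (an androgen), each at 10 nM for 16 h. E2+P4, E2+MPA and E2+DHT cells received E2 and the second steroid together, both at 10 nM for 16 h. E2pre+P4 cells received 10 nM E2 for 72 h and 10 nM P4 for 16 h, which the labels place at the end of the E2 exposure and the study's methods after it, and no group received E2 alone for 72 h. All cells had been kept in hormone-stripped medium. The labels do not say whether the 4 replicates of a group were separate cultures, so the p-values measure the spread between these arrays, which may be technical.

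Cells build cholesterol from acetyl-CoA, first through mevalonate to farnesyl diphosphate and then through squalene and lanosterol to the finished sterol. Supply is set by feedback: SCAP carries the transcription factor SREBP2, the product of SREBF2, from the endoplasmic reticulum to the Golgi when sterols are scarce, and the INSIG proteins hold the pair back when sterols are plentiful. Surplus cholesterol is esterified by SOAT1 and SOAT2 for storage or is pumped out by transporters such as ABCG1 and ABCA1, while NPC1 and NPC2 release cholesterol taken up in lipoproteins from the lysosome. Steroid hormones are made from cholesterol in steroidogenic tissues, and sterol metabolism is a known target of androgens in prostate cells.

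Levels are given on the log2 scale after background correction and quantile normalisation, and a probe counts as detected on an array at a detection p under 0.01. All 8 luminal markers (ESR1, GATA3, FOXA1, KRT8, KRT18, KRT19, EPCAM and CDH1) were detected on all 36 arrays. Of 10 markers of basal cells, fibroblasts, leukocytes and endothelium, 6 (KRT5, KRT14, VIM, COL3A1, PTPRC and CD3D) were detected on none, COL1A1 on 36, CD68 on 35 and PECAM1 on 1, and TP63 had no named probe. The arrays that carry the labels E2 replicate 2 and E2pre+P4 replicate 2 stood apart from the rest of their groups in SERPINA3 and PDZK1, toward the levels of each other's group. SERPINA3 stood at 12.42 on the former, where E2 arrays otherwise had 9.30 to 9.52, and at 9.42 on the latter, where E2pre+P4 arrays otherwise had 12.47 to 12.88. Calls of E2 and E2pre+P4 are given below with and without these arrays.

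A further 12 arrays stood apart in several of the genes described here. They were those in columns 13 to 24 of the deposited table, which hold VC replicate 4, E2 replicates 1, 2 and 3, DHT replicates 1, 2 and 4, E2+P4 replicate 4, E2+MPA replicates 3 and 4, E2+DHT replicate 1 and E2pre+P4 replicate 4. No array of the P4 or MPA groups lay among them. The files do not say what neighbouring columns share, and the columns are used here only as positions.

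Of the 28 genes tested, 22 were detected on all 36 arrays. The other 6 were IDI1 (35 arrays), CYP51A1 (24), SOAT2 (19), STARD3 (18), SOAT1 (16) and SREBF2 (5). Each group was compared with VC, each steroid added to E2 with E2, the steroids with one another, and a gene was called where the Benjamini-Hochberg adjusted p from limma, taken over the 9902 genes, was under 0.05. In all, 7 different members were called in at least 1 comparison: HMGCS1 and MVK of the mevalonate steps, the regulators INSIG1 and INSIG2, and SOAT2, ABCG1 and TMEM97 of storage and transport. None of the 10 sterol-forming enzymes tested, from SQLE to DHCR7, was called in any of the 21 comparisons in the main analysis. Apart from leaving out single arrays, alternatives called 4 of them, LSS, SC5D, CYP51A1 and MSMO1, as given beside each below.

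**Figure D1:**
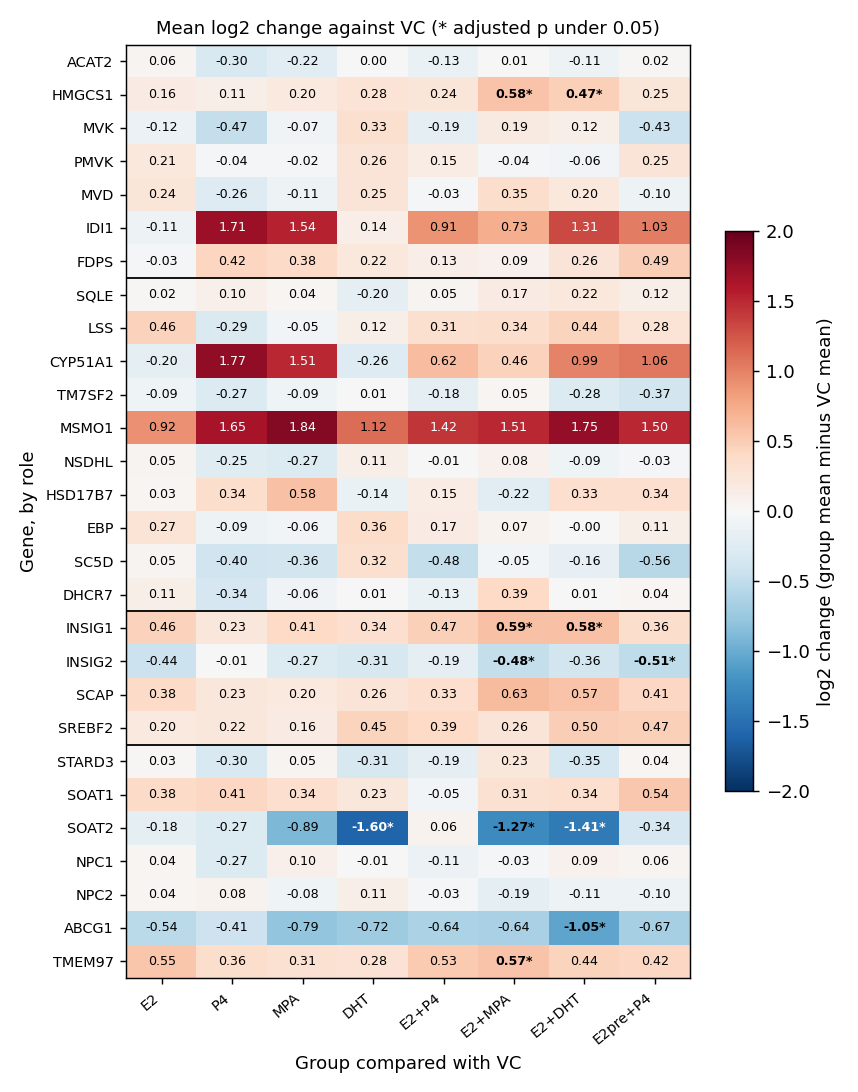
Mean log2 change of the 28 genes tested (rows, in blocks of mevalonate steps, sterol steps, regulators, and transport and storage) in the 8 treated groups (columns) against VC, with n = 4 arrays a group. Blue marks lower and red higher levels than VC, and an asterisk an adjusted p under 0.05. SOAT2 is the strongest blue, at -1.60 with DHT, and IDI1, CYP51A1 and MSMO1 are the strongest red, up to 1.84, with no asterisk.

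SOAT2, which esterifies cholesterol with fatty acids for storage and secretion, was called lower than VC wherever DHT was given and where MPA was given together with E2. With MPA alone it lay below VC too, but was not called. In VC it stood at 7.75, 7.65, 7.57 and 7.77 (mean 7.69 ± 0.09, SD, n = 4). With DHT it stood at 6.29, 6.24, 5.97 and 5.84, all below the lowest VC array, and was detected on 0 of 4 arrays where VC had 4 of 4. With E2+DHT the values were 7.05, 5.96, 6.16 and 5.94 and with E2+MPA 7.09, 6.78, 5.75 and 6.03, again with 0 of 4 arrays detected in either group and no overlap with VC. Because no array of these groups reached detection, the falls are lower bounds set at the detection level: SOAT2 was at least 1.44-fold lower with DHT (limma, adjusted p = 0.000158, measured mean 6.09), at least 1.66-fold lower with E2+DHT (adjusted p = 0.000409, mean 6.28) and at least 1.48-fold lower with E2+MPA (adjusted p = 0.00178, mean 6.41). The DHT and E2+DHT calls were kept under all 20 alternatives. The E2+MPA call was lost in a fit on the groups compared alone. It was also lost without the 12 arrays of columns 13 to 24, which include E2+MPA replicates 3 and 4 (difference -0.72).

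P4 and E2 left SOAT2 closer to VC. It was detected on 4 of 4 arrays with P4 (7.56, 7.63, 7.42 and 7.05) and with E2+P4 (7.67, 7.67, 7.67 and 7.99), and on 3 of 4 with E2 (7.75, 7.09, 7.91 and 7.29) and with E2pre+P4 (6.87, 7.90, 7.20 and 7.41). These 4 groups overlapped with VC, and their differences from VC ran from -0.34 to 0.06 with an SE of 0.25 each. MPA alone lay between: its arrays stood at 6.77, 7.15, 6.52 and 6.75, all below VC, with 1 of 4 detected and a difference of -0.89 (SE 0.25, limma adjusted p = 0.0580) that did not pass. Without those labelled E2 replicate 2 and E2pre+P4 replicate 2 the MPA difference was the same size at adjusted p = 0.0411, without VC replicate 2 it had adjusted p = 0.0315, and without VC replicate 1 adjusted p = 0.207.

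**Figure D2:**
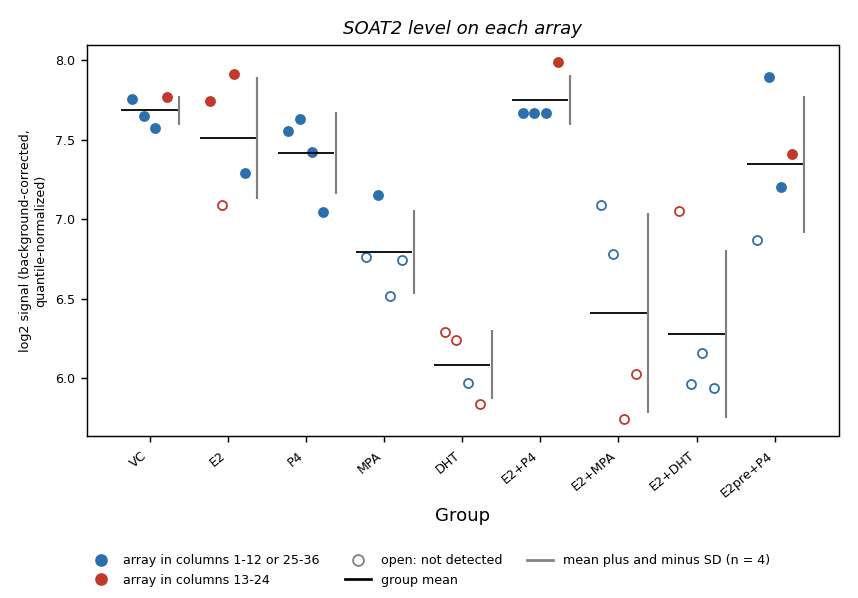
SOAT2 level (log2) on each of the 36 arrays by group. Open points were not detected, red points are arrays of columns 13 to 24, black lines are group means and grey bars the mean plus and minus 1 SD (n = 4). All 12 points of DHT, E2+MPA and E2+DHT are open and lie at 7.09 or below, and VC lies at 7.57 to 7.77.

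In the comparisons with VC, 2.4% of all genes tested were called with DHT, 3.87% with E2+MPA and 4.81% with E2+DHT. SOAT2 was the only 1 of 28 members called with DHT, 5 of 28 (17.9%) were called with E2+MPA and 4 of 28 (14.3%) with E2+DHT. The calls with E2+MPA were HMGCS1, INSIG1 and TMEM97 (higher) and INSIG2 and SOAT2 (lower), and those with E2+DHT were HMGCS1 and INSIG1 (higher) and SOAT2 and ABCG1 (lower). Of all genes tested, 1.37% were called with E2, 0% with P4, 1.96% with MPA, 1.92% with E2+P4 and 6.18% with E2pre+P4. In these 5 comparisons the members called numbered 0, 0, 0, 0 and, with E2pre+P4, 1 (INSIG2). At an unadjusted p under 0.05 in limma, 5 of 28 members passed with E2, 8 with P4, 5 with MPA and 6 with E2+P4, against 10.5%, 26.3%, 28.3% and 15.2% of all genes. Without the 2 mismatched arrays the shares of all genes were 1.29% with E2 and 5.5% with E2pre+P4, with 0 and 1 (INSIG2) members called. The 11 calls over the 8 comparisons became 7 without VC replicate 1, 33 without VC replicate 2 and 18 without VC replicate 4. The calls over all genes in these runs are not given, so the shifts are not read as particular to the members.

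As a list, the members lay slightly above the other genes in every comparison with VC. The median log2 change over the 28 members was 0.05 with E2, -0.03 with P4, 0.01 with MPA, 0.13 with DHT, 0.06 with E2+P4, 0.18 with E2+MPA, 0.16 with E2+DHT and 0.12 with E2pre+P4. The median over all 9902 genes was -0.01, -0.12, -0.12, -0.03, -0.03, -0.03, -0.07 and -0.06 in the same order. All 8 comparisons use the same 4 VC arrays. With E2+MPA 20 of 28 members were above VC, against 46.1% of all genes, and with E2+DHT 17 of 28, against 41.1%. The medians of the members were small beside the change of any member that was called.

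HMGCS1, the synthase that makes the HMG-CoA from which mevalonate is formed, was the only enzyme of the pathway called higher than VC in the main analysis. It stood at 12.53, 12.51, 12.48 and 12.51 in VC, a spread of 0.02 (SD, n = 4). With E2+MPA it stood at 12.92, 12.89, 13.28 and 13.25 and with E2+DHT at 12.79, 13.08, 12.95 and 13.08, so that all 8 arrays lay above all 4 VC arrays. The rise was 0.58 (SE 0.12, 1.49-fold, adjusted p = 0.00394 in limma) with E2+MPA and 0.47 (SE 0.12, 1.38-fold, adjusted p = 0.0185) with E2+DHT. With single steroids the mean differences from VC were 0.16 (E2), 0.11 (P4), 0.20 (MPA) and 0.28 (DHT), none of them called, and 0.23 with E2 without the mismatched arrays. Both calls were lost in fits on the groups compared alone. The E2+MPA call was also lost without the arrays of columns 13 to 24 (0.40) and the E2+DHT call without E2+DHT replicate 2 or replicate 4.

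INSIG1 and INSIG2, the paired retention proteins of the sterol feedback, moved in opposite directions. INSIG1 stood at 10.64, 11.76, 11.42 and 11.41 in VC, at 12.11, 11.58, 11.85 and 12.05 with E2+MPA and at 11.89, 11.88, 11.73 and 12.05 with E2+DHT. It was higher by 0.59 (SE 0.17, adjusted p = 0.0394, limma) with E2+MPA and by 0.58 (SE 0.17, adjusted p = 0.0383) with E2+DHT. The rise was not particular to these groups. The mean was above VC in all 8 treated groups, from 0.23 (P4), with 0.46 for E2 and 0.47 for E2+P4. E2+MPA and E2+DHT differed from E2 by 0.13 and 0.12. The E2+MPA and E2+DHT groups overlapped with VC through VC replicate 2, and VC replicate 1 was the lowest of all 36 arrays. Both calls were lost without VC replicate 1, at 0.37 (adjusted p = 0.206) and 0.36 (adjusted p = 0.308). Both calls were lost without the arrays of columns 13 to 24 (0.57, adjusted p = 0.168, and 0.61, adjusted p = 0.0771) and without the filter, and that of E2+MPA with the value table (0.66, adjusted p = 0.109). A second, dimmer probe of INSIG1 gave 1.06 with E2+MPA and 1.43 with E2+DHT, and it too was above VC in all 8 treated groups, from 0.69 (DHT). The E2+MPA call was also lost without VC replicate 3 or E2+MPA replicate 1, 3 or 4 (adjusted p = 0.0504 to 0.139), and the E2+DHT call without E2+DHT replicate 1, 2 or 4 (0.0602 to 0.126).

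INSIG2 was called lower with E2+MPA and with E2pre+P4. It stood at 11.19, 11.46, 11.48 and 11.23 in VC, at 10.88, 10.80, 10.76 and 10.99 with E2+MPA and at 10.94, 11.01, 10.83 and 10.52 with E2pre+P4. Neither treated group overlapped with VC, and the falls were -0.48 (SE 0.14, adjusted p = 0.0439, limma) and -0.51 (SE 0.14, adjusted p = 0.0223). The groups not called also had means below that of VC (11.34). They stood at 10.90 with E2 (10.46 on the mismatched replicate 2), 10.97 with E2+DHT, 11.02 with DHT, 11.07 with MPA, 11.15 with E2+P4 and 11.33 with P4. With both mismatched arrays left out, the E2pre+P4 difference was -0.58 (adjusted p = 0.00627). The E2+MPA call was lost without any 1 of VC replicates 1, 2 and 3 or of the 4 E2+MPA arrays, and the E2pre+P4 call without VC replicate 3 (-0.47, adjusted p = 0.0625) or without E2pre+P4 replicate 3 or 4. Both were lost with cyclic loess (-0.45, adjusted p = 0.128, and -0.42, adjusted p = 0.119) and with the value table (-0.42, adjusted p = 0.354, and -0.37, adjusted p = 0.316).

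The other regulators did not pass the test in any comparison of the main analysis. SCAP, the escort of SREBP2, stood at 11.82 ± 0.35 in VC, and its largest differences from VC were 0.63 with E2+MPA (SE 0.20, adjusted p = 0.0660 in limma) and 0.57 with E2+DHT (SE 0.20, adjusted p = 0.102). With the replicate number as a block both passed (adjusted p = 0.0194 and 0.0354), and the E2+DHT difference also passed with cyclic loess (0.64, adjusted p = 0.0459) and without the arrays of columns 13 to 24 (0.77, adjusted p = 0.0441). SREBF2 was detected on 5 of 36 arrays and on 0 of 4 in VC, P4, MPA and E2+DHT, so that its level could not be compared between groups at this signal.

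TMEM97, a sterol-responsive membrane protein that binds NPC1, was called higher than VC with E2+MPA alone of the 8 treated groups. It stood at 11.69, 12.94, 12.68 and 12.93 in VC and at 13.12, 12.96, 13.14 and 13.28 with E2+MPA, a difference of 0.57 (SE 0.16, adjusted p = 0.0417, limma). VC replicate 1 was the lowest array, and without it the difference was 0.28 (adjusted p = 0.190). Without VC replicate 3 or E2+MPA replicate 1, 3 or 4 the adjusted p was 0.0505 to 0.148. The call was also lost with cyclic loess (0.55, adjusted p = 0.0646), the value table (0.58, adjusted p = 0.185), a block of 6 neighbouring columns (0.53, adjusted p = 0.0655) and without the arrays of columns 13 to 24 (0.60, adjusted p = 0.126). The rise was not particular to E2+MPA. The mean was above VC in all 8 treated groups, by 0.28 (DHT) to 0.57. It was 13.11 with E2 and 13.09 with E2+P4, beside 13.13 with E2+MPA and 12.56 in VC.

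ABCG1, a transporter that hands cholesterol to lipoprotein particles outside the cell, fell with E2+DHT. It stood at 10.93, 9.71, 10.34 and 10.35 in VC and at 9.50, 9.18, 9.11 and 9.33 with E2+DHT, with no overlap and a difference of -1.05 (SE 0.23, 2.07-fold, adjusted p = 0.00329 in limma). Its mean was below VC in all 8 treated groups, by -0.41 (P4) to -1.05, and the differences with MPA, DHT and E2+MPA passed with cyclic loess, the value table and without the arrays of columns 13 to 24. The gene had 2 other passing probes, which gave 0.26 and -0.53 with E2+DHT. As deviations from group means they ran against the probe used (r = -0.69 and -0.29 over 36 arrays, a description). With the mean of the 3 probes the E2+DHT difference was -0.44 and was not called (adjusted p = 0.152). It was not called in a fit on the groups compared alone either.

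**Figure D3:**
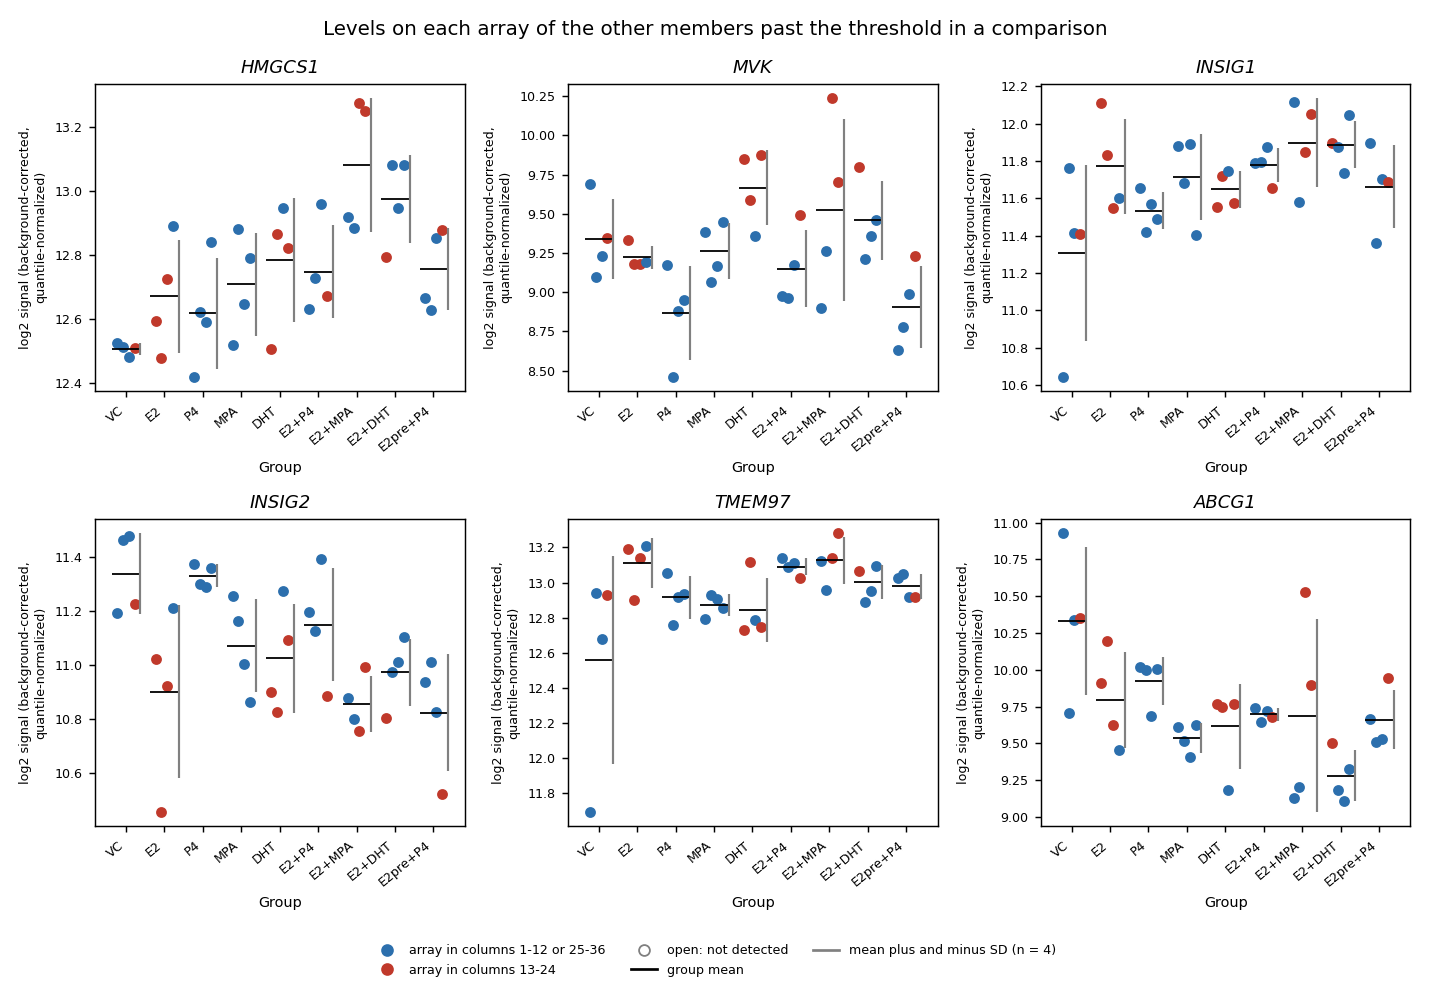
Levels (log2) on each of the 36 arrays, by group, of the other 6 members called in a comparison. Colours, lines and bars are as in the plot of SOAT2, with red points for arrays of columns 13 to 24. HMGCS1 lies above VC on every array of E2+MPA and E2+DHT, and VC replicate 1 is the lowest array of INSIG1 (10.64) and TMEM97 (11.69) and the highest of ABCG1 (10.93).

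The widest differences from VC belonged to 3 genes that were not called. IDI1, which isomerises isopentenyl diphosphate, CYP51A1, the lanosterol demethylase, and MSMO1, the methylsterol monooxygenase that acts after it, were higher with P4 by 1.71, 1.77 and 1.65 and with MPA by 1.54, 1.51 and 1.84 (a second MSMO1 probe gave 0.77 and 0.70). Their adjusted p values in limma were 0.158, 0.172 and 0.126 with P4 and 0.171, 0.210 and 0.0798 with MPA, since the arrays of single groups spread widely. IDI1 stood at 8.09, 9.88, 9.20 and 8.02 in VC, at 10.82, 10.20, 10.26 and 10.76 with P4 and at 10.05, 10.02, 10.40 and 10.87 with MPA. Neither group overlapped with VC. CYP51A1 stood at 6.99, 9.10, 8.33 and 6.32 in VC and at 9.48, 9.29, 9.38 and 9.67 with P4, and was detected on 2 of 4 and 4 of 4 arrays. MSMO1 stood at 7.96, 12.33, 11.64 and 10.98 in VC and at 12.48, 12.56, 12.68 and 12.55 with MPA. Without VC replicate 2, MSMO1 passed with P4 (2.19, adjusted p = 0.0357) and with MPA (2.37, adjusted p = 0.0131). That run leaves out the highest VC array of MSMO1 (12.33) and keeps the lowest, VC replicate 1 (7.96), which widens the difference. The share of all genes called in it is not given, so these calls are not read as particular to MSMO1.

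These 3 genes followed the array columns. CYP51A1 lay between 6.05 and 7.36 on the 12 arrays of columns 13 to 24 and was detected on 1 of them, against 6.99 to 9.92 on the other 24, with 23 detected. The 1 undetected array among the other 24 was VC replicate 1. IDI1 had a median of 8.26 (6.95 to 9.46) on the 12 arrays and of 10.39 (8.09 to 11.07) on the others, and MSMO1 of 11.46 (10.88 to 12.28) and 12.52 (7.96 to 12.92). The same split ran through the groups: the only E2 array outside columns 13 to 24, replicate 4, had the highest IDI1 of its group, against 6.95 to 8.50 on the other 3, and the only such DHT array, replicate 3, had it at 11.07 against 7.95 to 8.53. P4 and MPA had 0 of 4 arrays in these columns, VC 1, E2 and DHT 3 each. The part of the columns in the differences of P4 and MPA from VC was not tested, and P4 shares no set of 6 neighbouring columns with VC.

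Left without the 12 arrays, the comparisons gave other calls, chosen after the data were seen and with 1 array each left for E2 and DHT, which were assumed to spread like the other groups. Calls over all genes moved as well in this run. They rose with P4, MPA, E2+P4, E2+MPA, E2+DHT and E2pre+P4 against VC, and fell with E2 and DHT. The calls that follow are therefore not read as particular to these genes. IDI1 was then higher than VC with P4 (1.45, SE 0.31, adjusted p = 0.0210 in limma), MPA (1.28, adjusted p = 0.0267), DHT (2.02, adjusted p = 0.0327), E2+MPA (1.51, adjusted p = 0.0290), E2+DHT (1.51, adjusted p = 0.00882) and E2pre+P4 (1.34, adjusted p = 0.0172). With E2 (1.94, adjusted p = 0.0510) and E2+P4 (1.06, adjusted p = 0.0917) it did not pass. CYP51A1 passed with P4 (1.32, adjusted p = 0.0423) and E2pre+P4 (1.45, adjusted p = 0.0255), and MSMO1 with E2+DHT (2.15, adjusted p = 0.0400). VC then held 3 arrays, replicates 1, 2 and 3, and replicate 1 had the lowest IDI1, CYP51A1 and MSMO1 of the 24 arrays. Within the 1 set of neighbouring columns that held both MPA and VC, IDI1 was 0.83 higher with MPA (2 arrays against 1), CYP51A1 0.28 and MSMO1 0.87.

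**Figure D4:**
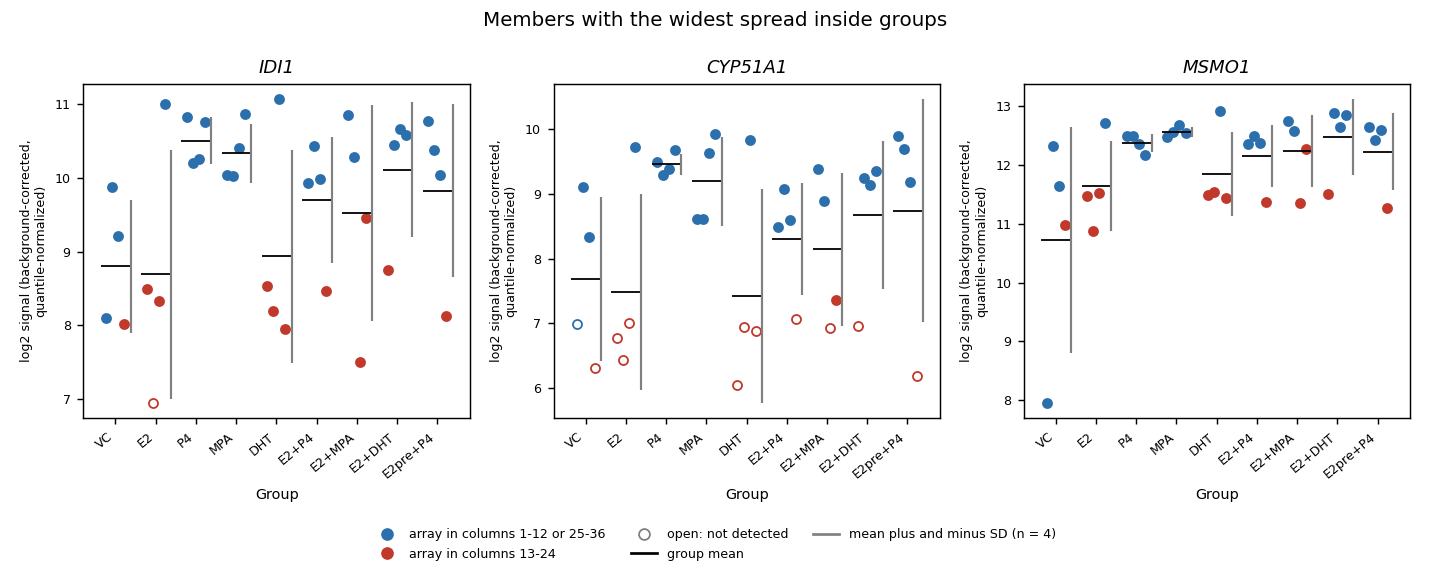
IDI1, CYP51A1 and MSMO1 levels (log2) on each of the 36 arrays by group. Red points are arrays of columns 13 to 24, open points were not detected, black lines are group means and grey bars the mean plus and minus 1 SD (n = 4). Inside each group that has both colours the red points lie below the blue ones, except for MSMO1 in VC. There VC replicate 1 is blue and lower (7.96) than the red point (10.98).

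The rest of the pathway split along the same line. Over all 9902 genes tested, and not the members alone, 52.8% of the variance of the deviations from group means lay on 1 axis. With this axis IDI1, CYP51A1 and MSMO1 had correlations of 0.93, 0.91 and 0.91 over the 36 arrays. HSD17B7, SOAT1 and INSIG2 went with them (0.80, 0.71 and 0.67), and 10 members went the other way with correlations under -0.6, among them NSDHL (-0.85), ABCG1 (-0.85), EBP (-0.80), MVD (-0.79) and ACAT2 (-0.78). NSDHL, EBP, SC5D and MVD code for enzymes of the same route, as IDI1 and MSMO1 do. The other 12 members, HMGCS1 (0.04), SQLE (0.27) and SOAT2 (-0.01) among them, lay between -0.6 and 0.6. For all 9902 genes the middle 50% of correlations with this axis ran from -0.64 to 0.27. The arrays share their depth and normalisation, and these correlations are a description.

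The remaining enzymes stayed nearer to VC. LSS, which closes squalene epoxide into lanosterol, stood at 9.94, 9.69, 9.98 and 10.19 in VC, at 10.61, 10.45, 10.44 and 10.14 with E2 and at 10.44, 10.24, 10.30 and 10.58 with E2+DHT. Its differences of 0.46 and 0.44 had adjusted p values of 0.112 and 0.0624 in limma. Both passed with cyclic loess (0.53, adjusted p = 0.00695, and 0.55, adjusted p = 0.00237) and with the value table (0.51, adjusted p = 0.00732, and 0.61, adjusted p = 0.000472), as did those with E2+MPA (0.39 and 0.42) and E2pre+P4 (0.40 and 0.43), and E2+P4 with the value table alone (0.49). The E2+DHT difference also passed with either block and without the arrays of columns 13 to 24. A second LSS probe gave 0.28 with E2 and 0.04 with E2+DHT. Without the mismatched arrays the E2 difference was 0.45 (adjusted p = 0.237). Over the 8 comparisons with VC, FDPS, the farnesyl diphosphate synthase, ran from -0.03 to 0.49, SQLE, the squalene epoxidase, from -0.20 to 0.22, HSD17B7, a sterol ketoreductase, from -0.22 to 0.58, and DHCR7, the last reductase of the route, from -0.34 to 0.39. ACAT2 (-0.30 to 0.06), PMVK (-0.06 to 0.26), MVD (-0.26 to 0.35), TM7SF2 (-0.37 to 0.05), NSDHL (-0.27 to 0.11), EBP (-0.09 to 0.36) and SC5D (-0.56 to 0.32) were not called either. SC5D passed with a block of 6 neighbouring columns in E2+P4 (-0.52, adjusted p = 0.0202) and E2pre+P4 (-0.58, adjusted p = 0.0147), and in both without the arrays of columns 13 to 24. Among the transport and storage genes, NPC1 (-0.27 to 0.10) and NPC2 (-0.19 to 0.11), which export lysosomal cholesterol, STARD3 (-0.35 to 0.23), a sterol carrier of late endosomes, and SOAT1 (-0.05 to 0.54), the widely expressed cholesterol acyltransferase, did not pass in any comparison.

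For MSMO1 a second probe was measured. As deviations from group means, it correlated with the one used at 0.76 over the 36 arrays. Its levels ran from 9.38 to 11.17 on the 12 arrays of columns 13 to 24 and from 8.91 to 11.41 on the others. IDI1 and CYP51A1 had no other passing probe.

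The promoters of the members were read from RefSeq (GRCh38.p14, 250 bases before to 50 bases after each annotated start), in which 26 of the 31 genes had an entry. ABCG1, ACAT2, FDFT1, SOAT2 and SQLE did not match. Both strands were searched for the sterol regulatory element bound by SREBP2 (TCACNCCAC), its shorter form CACCCCAC, which overlaps it, the NF-Y box CCAAT, the E-box CACGTG, the estrogen response element (GGTCA, any 3 bases, TGACC) and the response element of progesterone and androgen receptors (GNACA, any 3 bases, TGTNC). The NF-Y box, bound by a factor that acts beside SREBP2 at sterol genes, was present in 20 of 26 members (76.9%), against 39.7% of all 27305 genes in the table. The sterol element and its shorter form were found in SREBF2 alone (3.85% of members each, 1.39% and 3.39% of all genes) and the E-box in INSIG1, LSS, SC5D and SCAP (15.4% against 8.77%). Neither receptor element was found in any of the 26 (0.0732% and 0.48% of all genes). The stretches upstream of the start that hold the matches of 5 members are shown because HMGCS1, INSIG1 and TMEM97 were called, MSMO1 differed widely from VC, and SREBF2 encodes the factor of the pathway, with the matches in capitals (ATTGG is CCAAT on the other strand).
MSMO1, chr4:165327474-165327649, plus strand: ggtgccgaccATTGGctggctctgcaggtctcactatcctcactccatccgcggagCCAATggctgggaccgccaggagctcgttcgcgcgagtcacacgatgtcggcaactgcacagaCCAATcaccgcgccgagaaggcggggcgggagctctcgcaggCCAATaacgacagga
HMGCS1, chr5:43313498-43313577, minus strand: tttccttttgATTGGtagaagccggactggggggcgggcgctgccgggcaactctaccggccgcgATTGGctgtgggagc
INSIG1, chr7:155297698-155297838, plus strand: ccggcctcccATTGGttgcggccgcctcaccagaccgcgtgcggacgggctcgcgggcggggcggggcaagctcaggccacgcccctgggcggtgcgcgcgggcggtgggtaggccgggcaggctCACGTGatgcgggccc
TMEM97, chr17:28318992-28319129, plus strand: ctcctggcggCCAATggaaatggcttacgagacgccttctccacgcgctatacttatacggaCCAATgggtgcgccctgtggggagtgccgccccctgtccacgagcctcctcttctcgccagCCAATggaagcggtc
SREBF2, chr22:41832962-41833013, plus strand: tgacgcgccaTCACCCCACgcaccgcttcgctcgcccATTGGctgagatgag
MSMO1 held 4 NF-Y boxes, TMEM97 3, HMGCS1 2, INSIG1 1 beside its E-box, and SREBF2 1 downstream of its sterol element. A match is a run of letters in this window and says nothing of binding in these cells.

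Adding a steroid to E2 changed 1 member. Of all genes, 0% were called between E2+P4 and E2, 0.889% between E2+MPA and E2 and 0.818% between E2+DHT and E2, and of the 28 members 0, 1 and 1. SOAT2 was the member called, at least 1.31-fold lower with E2+MPA (limma, adjusted p = 0.0232) and at least 1.47-fold lower with E2+DHT (adjusted p = 0.00671) than with E2, whose measured mean was 7.51. E2+MPA replicate 1, at 7.09, overlapped with E2 replicate 2, also at 7.09, the array that went against its label. Without that array and E2pre+P4 replicate 2 the differences were -1.24 (adjusted p = 0.00539) and -1.37 (adjusted p = 0.00242). Without the 12 arrays of columns 13 to 24 neither call was kept (-0.36, adjusted p = 1.00, and -1.27, adjusted p = 0.0914), with 1 E2 array left. Leaving out E2 replicate 3 ended both calls, as did fits on the groups compared alone. Leaving out E2 replicate 1, E2+MPA replicate 3 or E2+MPA replicate 4 ended that of E2+MPA.

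With P4, 1 of 28 members had an unadjusted p under 0.05 in limma when added to E2, SC5D, a sterol desaturase, at -0.53 (SE 0.23, adjusted p = 1.00), against 0.929% of all genes. E2pre+P4 and E2+P4, which differ in the length of E2 exposure and share the P4 exposure, gave 0 of 28 members called and 0.0101% of all genes. Without the 2 mismatched arrays, 1.27% of all genes (126) and still 0 members were called. INSIG2 alone had an unadjusted p under 0.05 in this comparison, at -0.33 (SE 0.14, adjusted p = 0.999), which is 3.57% of members beside 3.47% of all genes. Without the mismatched arrays its difference was -0.39 (adjusted p = 0.266).

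P4, MPA and DHT share the steroid ring system, and MPA is a synthetic derivative of progesterone. They were set against one another at 10 nM and 16 h, alone and with E2, in 6 pairs. Of all genes, 0.374% were called between MPA and P4, 1.42% between DHT and P4, 0.303% between DHT and MPA, 0.465% between E2+MPA and E2+P4, 0.747% between E2+DHT and E2+P4 and 0.293% between E2+DHT and E2+MPA. The members called numbered 0, 2, 0, 1, 1 and 0 of 28. At an unadjusted p under 0.05 in limma the 3 pairs with no member called had 2, 6 and 3 members (7.14%, 21.4% and 10.7%), against 2.83%, 11.7% and 7.42% of all genes. P-values were adjusted over all genes within each pair and, in a second adjustment chosen after the data were seen, over all genes of the 6 pairs together.

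SOAT2 was called between DHT and P4 with and without E2, and between MPA and P4 only where E2 was present. It was at least 1.19-fold lower with DHT than with P4 (limma, adjusted p = 0.00178, measured means 6.09 and 7.41), at least 1.55-fold lower with E2+MPA than with E2+P4 (adjusted p = 0.00469, means 6.41 and 7.75) and at least 1.74-fold lower with E2+DHT than with E2+P4 (adjusted p = 0.000793, means 6.28 and 7.75). No arrays overlapped in these 3 pairs, and all 3 passed when adjusted over the 6 pairs (adjusted p = 0.00381, 0.00354 and 0.00110). MPA minus P4 was -0.62 (95% interval -1.14 to -0.10, adjusted p = 1.00) and DHT minus MPA -0.71 (-1.22 to -0.19, adjusted p = 0.412), and neither difference was called. With E2 present, the level with DHT minus that with MPA was -0.13 (-0.65 to 0.38, adjusted p = 0.882), an interval that leaves room for a difference in either direction, and neither group was detected. The call between E2+MPA and E2+P4 was lost without E2+MPA replicate 3, in a fit on the groups compared alone and without the arrays of columns 13 to 24 (-0.73). The 2 calls of DHT against P4 were kept under all 20 alternatives.

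MVK, the kinase that phosphorylates mevalonate, was the other member that differed between steroids. It stood at 9.85, 9.59, 9.36 and 9.87 with DHT and at 9.17, 8.46, 8.88 and 8.95 with P4, with no overlap and a difference of 0.80 (SE 0.21, 1.74-fold, adjusted p = 0.0405 in limma). Adjusted over the 6 pairs together it did not pass (adjusted p = 0.0718). Neither group was called against VC, where MVK stood at 9.69, 9.09, 9.23 and 9.35, with a mean between theirs. DHT and P4 hold 3 and 0 arrays of columns 13 to 24, where MVK had a median of 9.54 against 9.17 elsewhere, and without these arrays the difference was not called, with 1 DHT array left. The call was also lost without any 1 of P4 replicates 2, 3 and 4 or of DHT replicates 1, 2 and 4. A block of 6 neighbouring columns, no filter and a fit on the groups compared alone ended it too. With E2 present the difference between DHT and P4 was 0.31 (95% interval -0.11 to 0.73, adjusted p = 0.768).

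**Figure D5:**
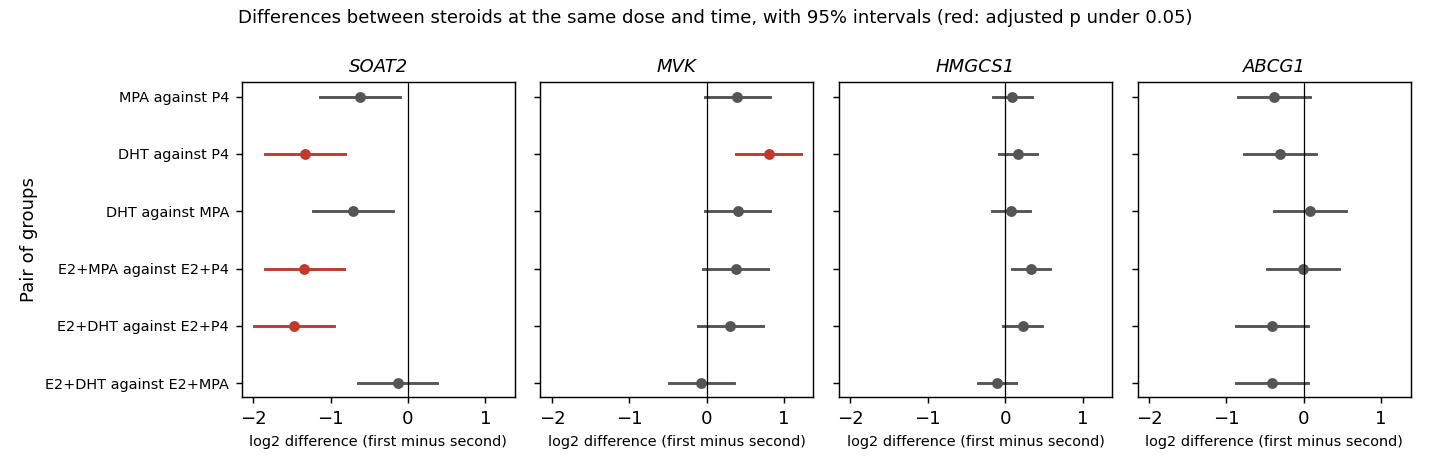
Differences between steroids given at 10 nM for 16 h (log2, first group minus second, points) with 95% intervals (bars) for SOAT2, MVK, HMGCS1 and ABCG1 in the 6 pairs of groups, n = 4 arrays a group. Red marks an adjusted p under 0.05. SOAT2 is lower with DHT than with P4 with and without E2, and the intervals of HMGCS1 and ABCG1 carry no red.

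HMGCS1 and ABCG1, called against VC with DHT or MPA beside E2, were not called between steroids. HMGCS1 was 0.33 higher with E2+MPA than with E2+P4 (95% interval 0.09 to 0.58, adjusted p = 0.201) and 0.23 higher with E2+DHT than with E2+P4 (-0.02 to 0.48, adjusted p = 1.00). The difference of ABCG1 between E2+DHT and E2+P4 was -0.42 (-0.88 to 0.05, adjusted p = 1.00). The interaction terms, which ask whether the change from a steroid depends on E2, called 0 of 28 members for P4, MPA and DHT, against 0.0101%, 0% and 0% of all genes. At an unadjusted p under 0.05 in limma, 0, 1 (ABCG1) and 3 (PMVK, SQLE and EBP) members passed (0%, 3.57% and 10.7%), against 3.66%, 14.6% and 4.68% of all genes. For SOAT2 the interaction with DHT was 0.37 (SE 0.36, adjusted p = 0.954) and with MPA -0.21 (SE 0.36, adjusted p = 0.760).

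Of 55 other genes of sterol and lipoprotein metabolism, 33 were tested, and 3 of them were called in a comparison. ABCA1, which loads cholesterol onto apolipoprotein A-I, was called lower than VC with DHT (-0.59, SE 0.15, adjusted p = 0.0243 in limma), E2+MPA (-0.67, adjusted p = 0.00648), E2+DHT (-0.77, adjusted p = 0.000970) and E2pre+P4 (-0.67, adjusted p = 0.00471). Its mean was also below VC with E2 (-0.33), P4 (-0.34), E2+P4 (-0.38) and MPA (-0.53), none of them called. It stood at 10.65, 11.17, 11.28 and 10.72 in VC and at 10.44, 10.30, 9.90 and 10.11 with E2+DHT, and none of the 4 groups called overlapped with VC. In the deposited value table, which is scaled otherwise, none of the 4 ABCA1 calls was kept, with differences of -0.52 to -0.61. Fits on the groups compared alone kept none of them either. The DHT call was also lost with cyclic loess, a block of 6 neighbouring columns, without the arrays of columns 13 to 24 (3 of the 4 DHT arrays), without VC replicate 2 or 3 and without DHT replicate 1 or 3. Without the mismatched arrays the E2pre+P4 difference was -0.73 (adjusted p = 0.00239), and the MPA difference from VC was then called (adjusted p = 0.0429).

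NCEH1, a hydrolase of stored cholesteryl esters, was higher with DHT than with P4 (0.61, SE 0.12, adjusted p = 0.00347) and with E2+DHT than with E2+P4 (0.51, adjusted p = 0.0313), and lower with E2pre+P4 than with VC (-0.58, adjusted p = 0.00257). All 3 calls were lost with the mean of its probes, and over the alternatives the difference between DHT and P4 ran from -0.02 to 0.68. The call between E2+DHT and E2+P4 was lost without any 1 of their 8 arrays. Without the mismatched arrays the E2pre+P4 difference from VC was -0.54 (adjusted p = 0.0120). MYLIP, a ubiquitin ligase that marks lipoprotein receptors for degradation, was lower with E2pre+P4 than with VC (-0.37, SE 0.11, adjusted p = 0.0389) and higher with E2+DHT than with E2 (0.50, adjusted p = 0.0136). The first call was lost without VC replicate 1 or E2pre+P4 replicate 1, 3 or 4, and the second without E2+DHT replicate 3 or 4 and without E2 replicate 2, the array that went against its label. Without both mismatched arrays the first was -0.41 (adjusted p = 0.0391) and the second 0.46 (adjusted p = 0.0666). In all, 0 of the 33 were called with E2, P4, MPA or E2+P4 against VC in the main analysis.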

How the data were processed

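Per the study's methods, the authors hybridised RNA of ZR-75-1 cells to Illumina HumanWG-6 v3 arrays and exported probe signals from BeadStudio. The deposited intensities were on a linear scale, without background subtraction or normalisation, and the deposited detection p-values were written as 1 minus p. A deposited value table was a straight-line change of the same signals (slopes 0.324 to 1.57 per array) and served as an alternative. Its scale and centring are not explained in the sources used here. The authors normalised with variance stabilisation and ComBat, which was not run here because the package was not installed and no batch was given.

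Here, signals were background corrected with normexp using the detection p-values and put on the log2 scale by quantile normalisation with an added offset of 16 (neqc, limma 3.58.1, R 4.3.3). Of 48803 probes, 27578 had 1 gene symbol in GEO's platform annotation, 13 had more than 1 and 21212 carried no symbol. Probes were kept where 4 or more arrays had detection p below 0.01 (15112 probes), and the probe with the highest mean stood for each gene (9902 genes). One limma fit of 9 group means over the 36 arrays gave 21 comparisons, and p-values were adjusted by Benjamini-Hochberg within each. The script was tested on simulated data with 200 changed genes.

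Between 12191 and 14806 probes were detected per array, the upper quartile of signal ran from 186.8 to 575.75, and the number of arrays limits the precision, with 95% intervals that reached a median of 0.40 on the log2 scale to either side of a difference. No 2 arrays held identical values. The members and lists were chosen with earlier results of these data known. Named with values were every member called in a comparison, the 4 regulators and, in each comparison with VC or E2, the 3 members with the largest change. A lower bound on a fold compares the detected group with the lowest detected signal on each array of the other group, or the probe's own signal where that was higher. Alternatives were no background correction, an offset of 50, cyclic loess, the value table, no filter, detection on 9 arrays, the mean of a gene's probes, fits on the groups compared alone, blocks of replicate number or of 6 neighbouring columns, and leaving out arrays.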

Additional observations from a re-analysis of the deposited data

Results flagged for a closer look

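Of 252 sets of 4 arrays (28 genes in 9 groups), 24 held 1 array far from the other 3 by Dixon's test, where chance alone gives about 1 in 20. Of these arrays, 14 lay in columns 13 to 24 of the deposited table and 0 were VC replicate 1. What sets these arrays apart was not tested.

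Among the mevalonate and early sterol genes, MVK stood at 9.33 on E2 replicate 1 (next array 9.20) and IDI1 at 8.75 on E2+DHT replicate 1 (next 10.45). SQLE stood at 12.76 on MPA replicate 4 (12.63), 12.06 on DHT replicate 2 (12.51) and 12.54 on E2+P4 replicate 4 (12.70). LSS stood at 10.20 on MPA replicate 4 (9.81) and CYP51A1 at 6.96 on E2+DHT replicate 1 (9.13). MSMO1 stood at 12.92 on DHT replicate 3 (11.54), 11.36 on E2+P4 replicate 4 (12.36), 11.51 on E2+DHT replicate 1 (12.65) and 11.26 on E2pre+P4 replicate 4 (12.42).

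Among the later enzymes, NSDHL stood at 12.10 on E2pre+P4 replicate 4 (next array 11.74), HSD17B7 at 11.81 on P4 replicate 2 (11.74), EBP at 11.91 on E2+DHT replicate 4 (12.33), SC5D at 10.38 on E2+P4 replicate 4 (9.55) and DHCR7 at 11.77 on E2+DHT replicate 1 (11.91). Among regulators and storage genes, SREBF2 stood at 7.41 on E2+P4 replicate 4 (6.44) and 6.21 on E2pre+P4 replicate 1 (6.89), STARD3 at 7.84 on MPA replicate 3 (7.08), SOAT1 at 7.44 on MPA replicate 3 (6.84) and SOAT2 at 7.99 on E2+P4 replicate 4 (7.67). ABCG1 stood at 9.68 on P4 replicate 3 (10.00) and 9.18 on DHT replicate 3 (9.75), and TMEM97 at 13.12 on DHT replicate 2 (12.79).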

How the results depend on the processing

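The members called numbered 11 against VC, 2 when a steroid was added to E2, 0 for the length of E2 exposure, 4 between steroids and 0 for the interactions. Leaving out 1 array gave 7 (without VC replicate 1) to 33 (without VC replicate 2) against VC, 0 (without E2 replicate 3) to 3 for a steroid added to E2, 3 to 10 (without DHT replicate 3) between steroids, and 0 for the rest. No filter gave 7 against VC. Fits on the groups compared alone, with fewer arrays for the spread, gave 2 against VC, 0 for a steroid added to E2 and 2 between steroids. The calls kept were those of SOAT2 with DHT and E2+DHT against VC, DHT against P4 and E2+DHT against E2+P4. Every other call of a member was lost there, as were all calls of ABCA1, NCEH1 and MYLIP. Leaving out the 12 arrays of columns 13 to 24, an alternative added after seeing the data, left 1 array each for E2 and DHT, and its counts are not given. Counts over all genes moved with the setting too. Against VC they were 1030 higher and 1199 lower in the main analysis, and 415 and 136 in fits on the groups compared alone. All-gene counts without single arrays are not given, so the member counts are not read as particular to the members. Apart from leaving out single arrays, alternatives also made calls in LSS, SC5D, SCAP, ABCG1, IDI1, CYP51A1, MSMO1 and SOAT2 that the main analysis did not. INSIG1 with E2pre+P4 passed with the mean of its probes (0.77, adjusted p = 0.0382), IDI1 with E2+MPA with a block of 6 neighbouring columns (1.11, adjusted p = 0.0473) and HMGCS1 between E2+MPA and E2 with the replicate block (0.41, adjusted p = 0.0476). The causes of these shifts were not tested. No called change of a member reversed under any alternative, while NCEH1 between DHT and P4 went from 0.61 to -0.02. Replicate numbers did not pair the arrays (mean correlation 0.017 over 144 same-numbered pairs), and the replicate block gave 14, 3, 0, 4 and 0 calls. Among called genes compared with VC, 46.2% of all genes and 5 of 11 members were higher, against 58% and 9 of 16 with cyclic loess and 60.1% and 8 of 16 with the value table, and for a steroid added to E2 80.1% of all genes with the value table against 66.9%. The median of all genes for P4 against VC was -0.12, and 0.01 with cyclic loess and 0.06 with the value table. For MPA it was -0.12, and 0.00 and 0.07. Signal limited IDI1, CYP51A1, SOAT1, SOAT2, STARD3 and SREBF2, which were not detected on every array.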
